A study of Macaca mulatta with 24 samples.

Results

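The genes described here encode the glycine receptor, its synaptic scaffold and a glycine transporter, measured in the nucleus accumbens core (NAcc) of rhesus macaques. They were GLRA1, GLRA2 and GLRA3, which encode alpha subunits of the receptor, GLRB, which encodes its beta subunit, GPHN, which encodes gephyrin, and SLC6A9, which encodes the glycine transporter GlyT1. Each was taken by its exact gene symbol, and all 6 were among the 17208 gene rows of the table. All 6 reached a mean of 1 TPM (transcripts scaled to a fixed total per library, corrected for gene length), the level that 13637 genes reached.

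The animals were 24 unrelated adult male Macaca mulatta, each giving 1 library. The 8 controls drank water from both spouts of the drinking panel, passed through the same induction procedure and received a maltose dextrin solution to match calories. The 8 LD* animals (low and binge drinkers, labelled LD) and the 8 HD* animals chose daily between water and 4% (w/v) ethanol for 22 h per day over 12 months after induction. The HD* group held 4 heavy drinkers (HD) and 4 very heavy drinkers (VHD). Daily ethanol intake was 0.47 to 2.07 g/kg in LD*, 2.74 to 3.09 g/kg in HD and 3.09 to 3.78 g/kg in VHD. The categories rest on what each animal chose to drink, so drinking was not assigned. Animals came in 4 cohorts. The controls were 3, 2 and 3 animals of cohorts 5, 7a and 7b, and the LD* animals were 2, 3 and 3 of cohorts 4, 7a and 7b. All HD* animals belonged to cohorts 5 and 7a, with 2 HD and 2 VHD in each.

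The glycine receptor is a chloride channel of 5 subunits. Alpha subunits bind glycine, and the beta subunit anchors the receptor to gephyrin, which also holds GABA-A receptors at inhibitory synapses. Receptors made of alpha subunits alone lie mostly outside the synapse and give a tonic current, and GlyT1 sets the glycine concentration they meet by taking glycine up, mainly into glia. In the nucleus accumbens, glycine receptors are known as a target whose currents ethanol enhances.

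Markers of spiny projection neurons, the main neurons of the striatum, were present in all 24 libraries, and none of the 10 listed was at 0 in any animal. Their summed level ranged from 772 to 11916 TPM, however, and the lowest belonged to control 6, which also had the highest sum of 7 oligodendrocyte markers (9493 TPM). The sum of 4 cortical excitatory markers ranged from 1.42 to 834 TPM. VHD animal 4 had the lowest trimmed-mean scaling factor, 0.689, where the other libraries lay between 0.838 and 1.13. In tissue of mixed cells, fewer cells of a type and less RNA per cell cannot be told apart.

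GPHN was the most abundant member, with a mean of 53.4 ± 13.5 TPM (SD, n = 24) and a range of 23.5 to 72.0 TPM. SLC6A9 had a mean of 43.4 ± 23.1 TPM and GLRB of 43.2 ± 12.4 TPM. GLRA2 was close behind at 37.9 ± 16.8 TPM and was the only alpha subunit member expressed at such a level. GLRA3 (1.26 ± 1.57 TPM) and GLRA1 (1.06 ± 0.783 TPM) were near the lower limit of the genes tested. On the log2(TPM + 1) scale, GPHN exceeded SLC6A9 in 18 of 24 animals (paired permutation test, p = 0.0129), GLRB exceeded GLRA2 in 16 of 24 (p = 0.00676) and GLRA2 exceeded GLRA3 in 24 of 24 (p = 1e-05, the smallest that 100000 permutations can give). The levels of SLC6A9 and GLRB (permutation p = 0.764) and of GLRA3 and GLRA1 (permutation p = 0.842) did not differ beyond their spread. These 5 two-sided p-values are not adjusted.

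**Figure D1:**
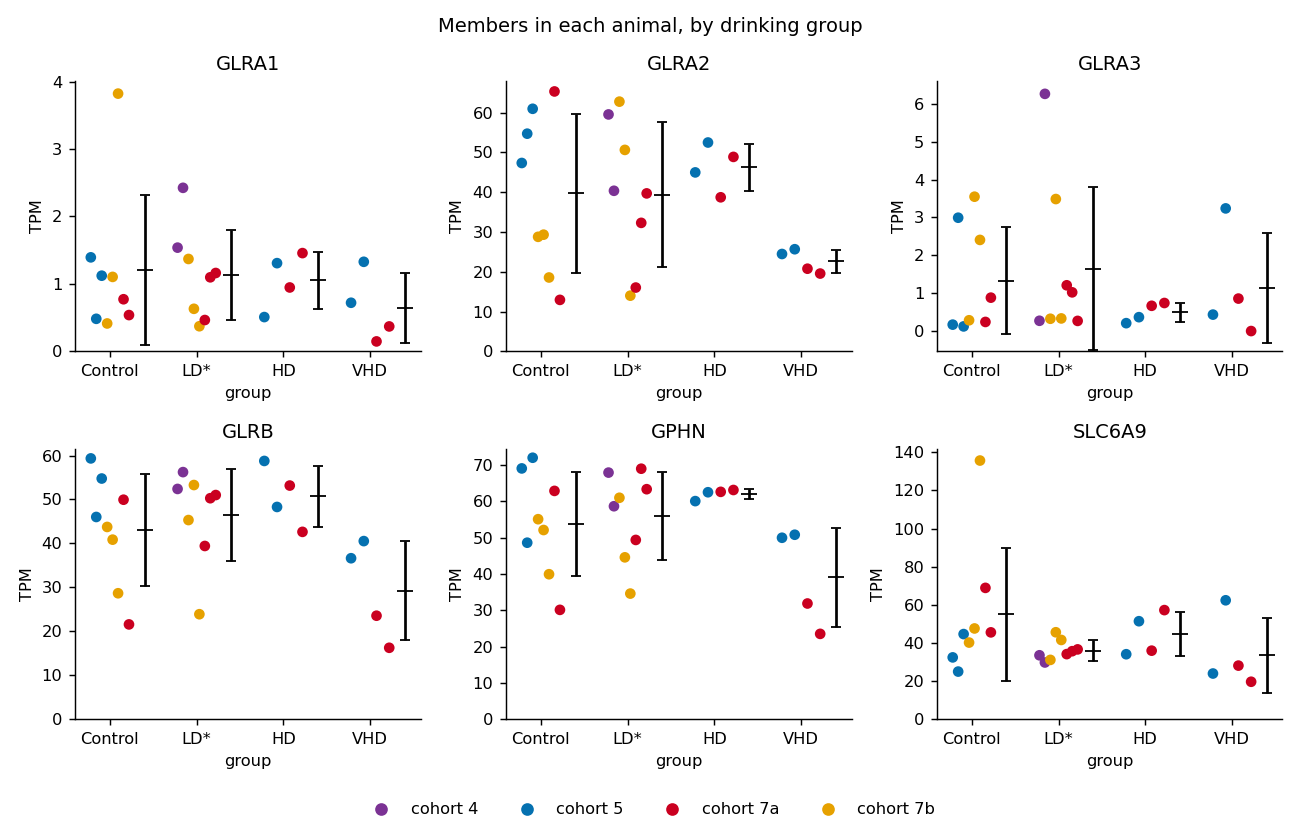
Level of each member in TPM (vertical axis) in every animal by group (horizontal axis), with points coloured by cohort and the bar beside each group giving the mean ± SD. GLRA2, GLRB and GPHN overlapped among controls, LD* and HD, while the 4 VHD animals lay below the 4 HD animals for each of them.

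The first question was whether drinkers differed from controls in these genes. GLRB ranged from 21.6 to 59.3 TPM in controls (median 44.9), from 23.9 to 56.2 in LD* (median 50.7) and from 16.2 to 58.8 in HD* (median 41.6). GLRA2 ranged from 12.9 to 65.3 TPM in controls (median 38.3), from 14.0 to 62.8 in LD* (median 40.0) and from 19.5 to 52.5 in HD* (median 32.2). GPHN ranged from 30.1 to 72.0 TPM in controls (median 53.6), from 34.6 to 69.0 in LD* (median 59.8) and from 23.5 to 63.1 in HD* (median 55.4). The 3 groups overlapped over nearly their whole range for the beta subunit, the main alpha subunit and the scaffold alike.

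The minor alpha subunits were low throughout. GLRA1, the subunit that predominates in adult spinal cord and brainstem, ranged from 0.413 to 3.82 TPM in controls, from 0.372 to 2.42 in LD* and from 0.146 to 1.46 in HD*. GLRA3 ranged from 0.123 to 3.55 TPM in controls, from 0.268 to 6.26 in LD* and from 0 to 3.24 in HD*, with medians of 0.583, 0.678 and 0.550 TPM. In each group, then, most animals had well under 2 TPM of GLRA3 and at least 1 stood higher.

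SLC6A9 had the highest mean in controls. It ranged from 25.0 to 136 TPM there (median 45.1), from 29.8 to 45.6 in LD* (median 34.9) and from 19.6 to 62.4 in HD* (median 35.0). The highest value was that of control 6, and the other controls reached at most 68.9 TPM. With that animal the log2 difference from controls was -0.40 for HD* and -0.43 for LD*, and without it -0.19 and -0.22. The oligodendrocyte marker sum ranged from 2656 to 9493 TPM in controls, from 1617 to 6345 in LD* and from 2349 to 4954 in HD*, and its part in the SLC6A9 difference was not tested.

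None of the 6 members passed the test in any of these 3 comparisons. The background was the same: 0% of 13637 genes passed in HD* against controls, 0% in LD* against controls and 0% in HD* against LD* (limma on log2(TPM + 1), Benjamini-Hochberg adjusted p under 0.05), with 775, 387 and 147 genes at an unadjusted p under 0.05. For HD* against controls, the log2 differences were -0.14 for GLRB (95% interval -0.63 to 0.34), -0.11 for GPHN (-0.53 to 0.31), -0.11 for GLRA2 (-0.81 to 0.59), -0.19 for GLRA1, -0.27 for GLRA3 and -0.40 for SLC6A9 (-0.94 to 0.13). The median over all genes was -0.12, and after trimmed-mean rescaling, which brought that median to -0.0067, GLRB was at -0.019, and GLRA2 and GPHN changed sign to 0.013 and 0.015. For LD* against the same controls, GLRB was at 0.13 (-0.36 to 0.61), GPHN at 0.076, GLRA2 at 0.0083, GLRA1 at 0.0072, GLRA3 at 0.10 and SLC6A9 at -0.43 (-0.96 to 0.10). For HD* against LD*, the log2 differences were -0.27 for GLRB, -0.18 for GPHN, -0.12 for GLRA2, -0.19 for GLRA1, -0.37 for GLRA3 and 0.025 for SLC6A9. The lowest limma adjusted p of a member was 0.706, and exact two-sided permutation p-values for the 18 differences lay between 0.122 and 0.984.

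**Figure D2:**
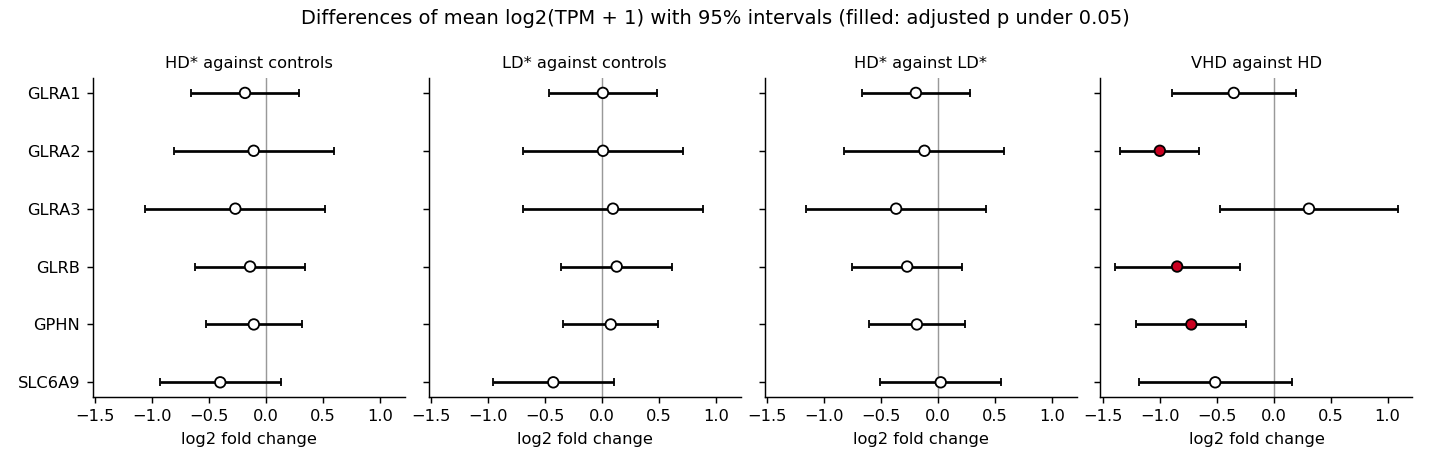
Difference in mean log2(TPM + 1) of each member (horizontal axis, log2 fold change) in the 4 comparisons, with bars giving the 95% interval of the limma fit and filled points an adjusted p under 0.05. In the first 3 panels every interval covers 0, and GLRA2 and GPHN change sign in HD* against controls after rescaling. In VHD against HD, GLRA2, GLRB and GPHN lie below 0.

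No other listed gene of the inhibitory synapse passed either. Of 13 gephyrin partners tested, 7 GABA-A receptor subunits, 5 transporters of glycine and other neutral amino acids, 10 enzymes of glycine metabolism and 5 genes of molybdenum cofactor synthesis and use (gephyrin's other role), 0 passed in any of the 3 comparisons. SLC32A1, the vesicular transporter that loads GABA and glycine, had 119 to 407 TPM in controls, 123 to 447 in LD* and 155 to 427 in HD*. SLC6A5, which encodes GlyT2 and defines glycine-releasing neurons, was listed at 0 in all HD* animals and reached at most 0.0443 TPM in any animal.

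The second question was whether very heavy drinkers differed from heavy drinkers. GLRA2, GLRB and GPHN were lower in VHD, and for all 3 the highest VHD animal lay below the lowest HD animal. The background was large: 14.6% of genes passed, 11.4% as lower and 3.23% as higher in VHD, while 17.9% had all VHD values below all HD values and 5.39% all above. The 3 members that passed were the 3 with no overlap.

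GLRA2 was at 45.0, 52.5, 38.7 and 48.9 TPM in HD animals 1 to 4. It was at 24.5, 25.7, 20.8 and 19.5 TPM in VHD animals 1 to 4. The VHD animals clustered tightly, at 22.6 ± 2.92 TPM (SD, n = 4) against 46.3 ± 5.90 TPM. The log2 difference was -1.0 ± 0.16 (SE), a ratio of 0.500 on the TPM + 1 scale, with a limma adjusted p of 0.00505.

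GLRB was at 58.8, 48.3, 53.2 and 42.6 TPM in the HD animals. It was at 36.6, 40.5, 23.6 and 16.2 TPM in the VHD animals. The highest VHD value was 40.5 and the lowest HD value 42.6, so the groups were separate but adjacent. The log2 difference was -0.85 ± 0.25 (SE), with a limma adjusted p of 0.0425.

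GPHN was at 60.0, 62.5, 62.6 and 63.1 TPM in the HD animals, a spread of 1.37 TPM (SD). It was at 50.0, 50.8, 31.8 and 23.5 TPM in the VHD animals, a spread of 13.5 TPM. The VHD animals fell into a pair just under the HD level and a pair well below it, and these pairs belonged to cohort 5 and cohort 7a. The pair of cohort 7a also had lower trimmed-mean scaling factors (0.838 and 0.689) than the pair of cohort 5 (0.940 and 1.13). Whether the pairs stayed apart after rescaling was not tested. The log2 difference was -0.72 ± 0.22 (SE), with a limma adjusted p of 0.0478.

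The exact two-sided permutation p was 0.0286 for each of the 3, the smallest that 4 against 4 allows. After trimmed-mean rescaling, which moved the median of all genes from -0.17 to 0.0057, the log2 differences were -0.80 for GLRA2, -0.65 for GLRB and -0.52 for GPHN, and all 3 still passed. The split of called genes moved more: 77.9% of 1997 calls were lower in VHD before rescaling and 54.7% of 2581 after it. GLRA2 passed without any 1 of the 8 animals in turn (adjusted p 0.00267 to 0.0272). GLRB and GPHN passed without VHD animal 1 or VHD animal 2, and did not pass without any 1 of the 4 HD animals, VHD animal 3 or VHD animal 4 (adjusted p 0.0586 to 0.135 for GLRB and 0.0655 to 0.148 for GPHN). All 3 also passed with cohort as a covariate (limma adjusted p 0.00307 for GLRA2, 0.0153 for GLRB and 0.0228 for GPHN). The direction was the same in both cohorts, which were not tested singly and whose values were taken without rescaling. The log2 difference of GLRA2 was -0.93 in cohort 5 and -1.07 in cohort 7a, that of GLRB -0.46 and -1.24, and that of GPHN -0.28 and -1.17.

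The other members did not pass. SLC6A9 was at 34.1, 51.4, 35.95 and 57.2 TPM in HD and at 23.96, 62.4, 28.1 and 19.6 TPM in VHD. Its log2 difference was -0.51 (95% interval -1.19 to 0.16, limma adjusted p = 0.267), and without VHD animal 2, the highest of all HD* animals, it was -0.85 with an adjusted p of 0.0105. GLRA1 was at -0.35 (adjusted p = 0.347) and GLRA3 at 0.31 (adjusted p = 0.581).

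Neighbours of the members at the inhibitory synapse were called as follows in VHD against HD. SLC32A1 was lower, at 155 to 263 TPM against 343 to 427 (log2 difference -0.97, limma adjusted p = 0.00689). Of 13 gephyrin partners, 5 were lower, 0 higher and 8 did not pass, where 11.4% of all genes were called lower, with a median log2 difference of -0.47 against -0.17 over all genes. The 5 were SLITRK3 (-1.14), an adhesion protein of inhibitory synapses, SHISA7 (-0.88) and LHFPL4 (-0.83), auxiliary proteins of GABA-A receptors, NLGN2 (-0.83), the neuroligin of inhibitory synapses, and DYNLL2 (-0.62), a dynein light chain that binds gephyrin. Of 7 GABA-A subunits, 2 were lower, GABRA3 (-0.94) among them, and 5 did not pass, against the same 11.4%.

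Genes that handle glycine itself were counted against the same background of 14.6% of genes called. Of the 5 other amino acid transporters, 0 passed, with log2 differences from -0.79 for SLC38A1 and -0.76 for SLC38A2 to 0.23 for SLC7A10 and 0.47 for SLC38A5. Of 10 enzymes of glycine metabolism, SHMT1 (-0.53), the cytosolic enzyme that interconverts serine and glycine, was lower and 9 did not pass. Of 5 molybdenum cofactor genes, 0 passed. The median was 0.025 for the transporters, 0.12 for the enzymes and -0.19 for the cofactor genes.

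**Figure D3:**
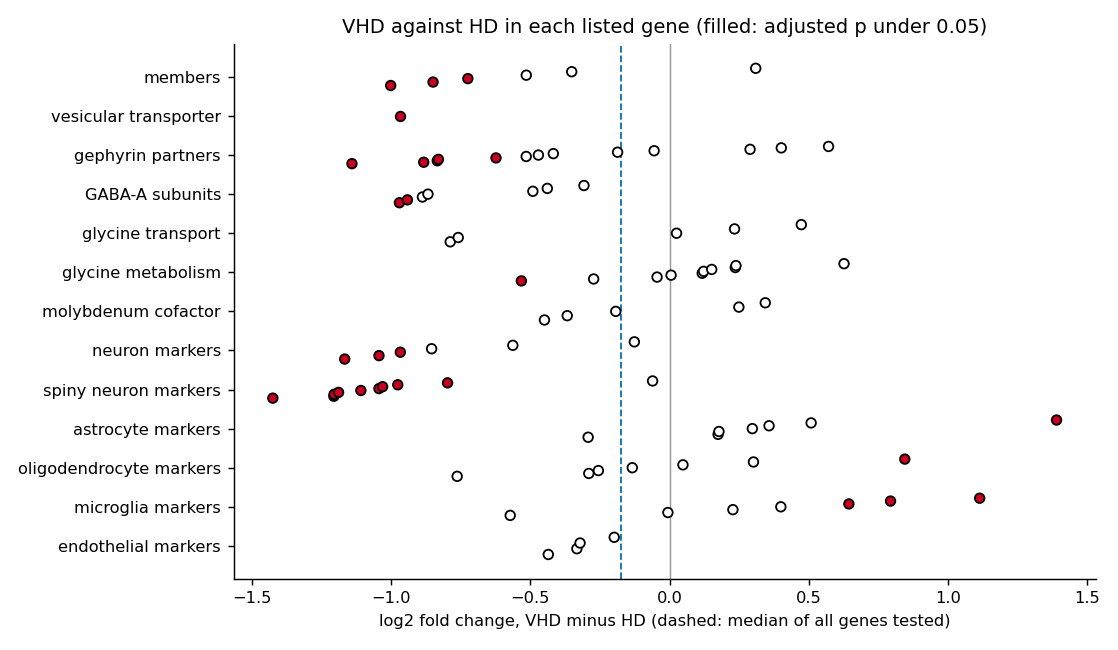
Log2 difference between VHD and HD (horizontal axis) of each listed gene, 1 row per list, with filled points at an adjusted p under 0.05 and a dashed line at the median of all genes (-0.17). Called genes lie to the left in the members, gephyrin partners, GABA-A subunits and neuron lists, and to the right in the astrocyte, oligodendrocyte and microglia lists.

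Cell markers moved with these differences. Of 10 spiny neuron markers, 9 were lower in VHD, and their sum was 3513 to 6252 TPM in VHD and 9239 to 10838 in HD. Of 6 markers of neurons in general, 3 were lower (SNAP25, SYT1 and NEFM), with sums of 1250 to 2777 against 2721 to 3277 TPM. GFAP (log2 difference 1.39) among 7 astrocyte markers, MBP (0.84) among 7 oligodendrocyte markers and AIF1 (1.11), C1QA (0.79) and C1QB (0.64) among 7 microglia markers were higher. The astrocyte marker sum was 3939 to 6613 TPM in VHD and 1802 to 3291 in HD, and the microglia sum 362 to 632 against 275 to 362. No gene was called among the interneuron, cortical excitatory, oligodendrocyte precursor and endothelial markers. None of the neuron, astrocyte, oligodendrocyte or microglia markers was at 0 in any animal. Expressed as a log2 ratio to the neuron marker sum, a measure chosen after the values were seen, the VHD minus HD difference was -0.27 for GLRA2 (exact permutation p = 0.257), -0.11 for GLRB (p = 0.514) and 0.024 for GPHN (p = 0.943). The part of cell composition in the called differences was not tested beyond these ratios.

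Against the same 8 controls, the HD and VHD means lay on opposite sides for GLRB, GLRA2 and GPHN. The log2 differences were 0.28 and -0.57 for GLRB, 0.39 and -0.61 for GLRA2 and 0.25 and -0.47 for GPHN, HD first. Neither HD nor VHD passed against controls for any member (limma adjusted p 0.324 at the lowest). The pooled HD* difference of these 3 genes was therefore the average of an HD and a VHD difference of opposite sign.

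No member passed a test of cohort alone. In a limma F test over the 4 cohorts the adjusted p lay between 0.540 and 0.720 for the 6, and 0 of 13637 genes passed (1140 at an unadjusted p under 0.05). Within cohort 5, HD* minus control was -0.22 for GLRB, -0.62 for GLRA2, -0.16 for GPHN and 0.28 for SLC6A9 on the log2 scale. Within cohort 7a it was -0.10, 0.014, -0.067 and -0.76. SLC6A9 thus had opposite signs in the 2 cohorts, and the interaction did not pass (log2 -1.03, limma unadjusted p = 0.0878, adjusted p = 1.00; 0 genes called and 294 at an unadjusted p under 0.05). For LD* minus control, SLC6A9 was at -0.65 in cohort 7a and -0.70 in cohort 7b, and GLRB at 0.49 and 0.057.

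The third question was whether the members followed the amount drunk. The intakes of LD* and HD* did not overlap, so each group was taken alone. Within HD*, the order of intake nearly matched the split into HD (2.74 to 3.09 g/kg) and VHD (3.09 to 3.78 g/kg). Relations in HD* are thus not separate from the VHD against HD contrast of the same 8 animals. GLRA1 was lower in LD* animals that drank more. In order of intake, the 8 LD* animals had 2.42 TPM at 0.47 g/kg, 1.54 at 1.24, 1.37 at 1.43, 0.630 and 1.10 at 1.82, 1.16 at 1.85, 0.464 at 1.95 and 0.372 at 2.07. Pearson's r on log2(TPM + 1) was -0.90 (exact permutation p = 0.000198) and Spearman's rho -0.92 (exact p = 0.00238), with r = -0.80 without the 2 animals farthest from the median intake and -0.94 to -0.85 without any 1 animal. Of 13637 genes, 9 (0.066%, GLRA1 included) had an r as far from 0.

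This was the strongest of 12 relations computed (6 members, 2 groups; no r is given for GLRA3, whose values lay in separate clusters), and GLRA1 is a gene of about 1 TPM. Across all genes the limma slope did not pass (-0.76 log2 units per g/kg, adjusted p = 0.703, with 0% of genes passing and 716 at an unadjusted p under 0.05). The 2 lowest intakes were those of the cohort 4 animals, and cohorts 7a and 7b gave 3 LD* animals each, too few for a value within a cohort. Age, higher in 2 of the LD* animals, was not taken into account. In HD* the r of GLRA1 was -0.042, and the difference between the groups was not tested.

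The larger members gave weaker relations. GLRB had r = -0.54 in LD* (exact permutation p = 0.141, rho = -0.75, exact p = 0.0361) and r = -0.46 in HD* (exact permutation p = 0.258, rho = -0.81, exact p = 0.0180). GLRA2 had r = -0.51 in LD* (exact permutation p = 0.190, rho = -0.78, exact p = 0.0287) and -0.60 in HD* (exact permutation p = 0.114, rho = -0.60, exact p = 0.125). SLC6A9 had r = 0.70 in LD* (exact permutation p = 0.0501, rho = 0.71, exact p = 0.0586) and -0.35 in HD* (exact permutation p = 0.416). GPHN had r = -0.44 and -0.36 (exact permutation p = 0.283 and 0.391). None passed across all genes, where the limma adjusted p was 0.703 in LD* and at least 0.844 in HD*, and 0% of genes passed in HD* with 315 at an unadjusted p under 0.05. For GLRB, 20.2% of genes in LD* and 26.1% in HD* had an r at least as far from 0.

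**Figure D4:**
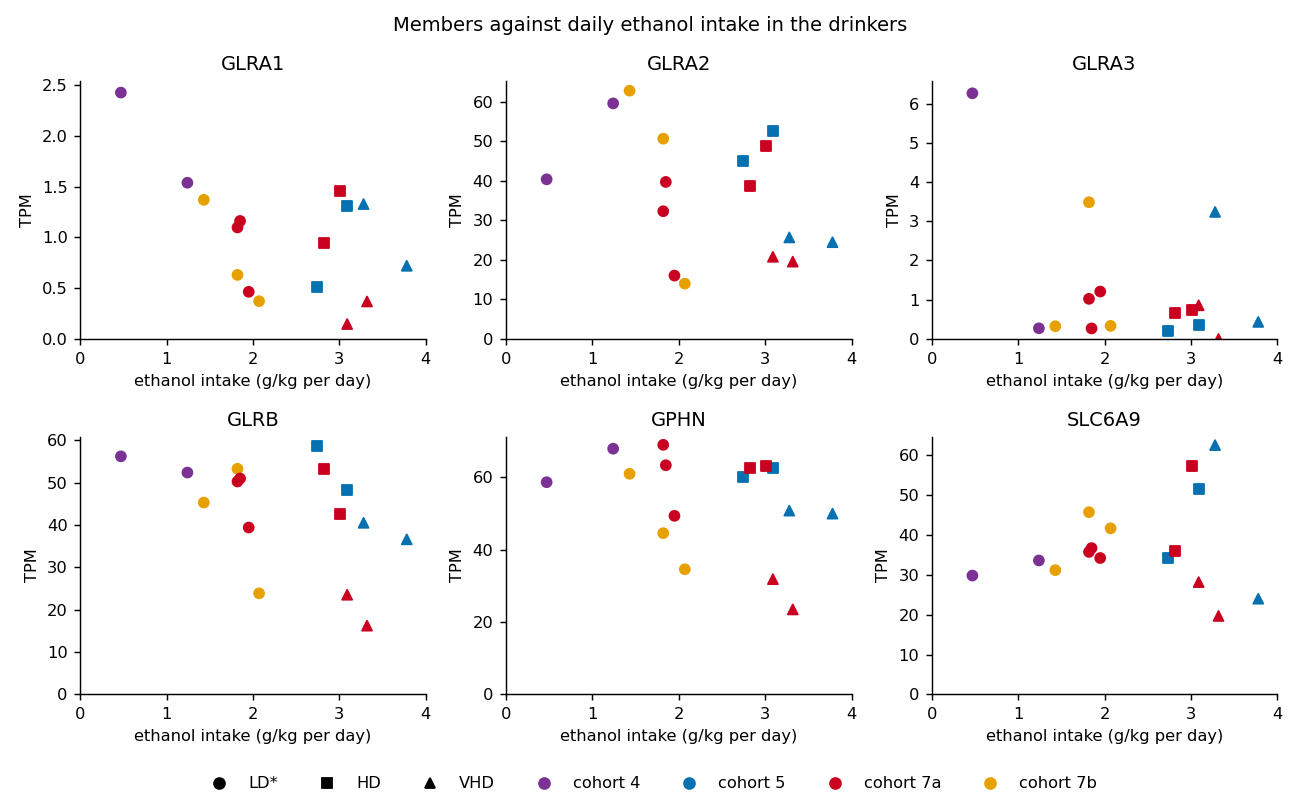
Level of each member in TPM (vertical axis) against daily ethanol intake in g/kg (horizontal axis) for the 16 drinkers, with the symbol giving the group and the colour the cohort. GLRA1 in the LD* animals descends from 2.42 TPM at 0.47 g/kg to 0.372 TPM at 2.07 g/kg, and GLRA2, GLRB and GPHN drop between the HD squares and the VHD triangles.

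Subunit balance was compared within animals, since a ratio of 2 genes of 1 library does not depend on its scaling. The summed TPM of GLRA1, GLRA2 and GLRA3 was 0.848 of GLRB at the median, with a range of 0.449 to 1.42. GPHN was 1.28 times GLRB, with a range of 0.836 to 1.48. GLRA2 made up 95.6% of the 3 alpha genes at the median, with a range of 74.9% to 98.5%. By group, the GLRA2 share averaged 92.0% ± 8.16 (controls), 93.2% ± 4.99 (LD*) and 95.1% ± 4.29 (HD*; SD, n = 8). None of the 9 differences between groups in these 3 measures exceeded the spread between animals (exact permutation p 0.397 to 0.934). Between VHD and HD, added after the values were seen, the log2 ratio of the alpha sum to GLRB differed by -0.11 (exact permutation p = 0.686) and that of GPHN to GLRB by 0.13 (exact permutation p = 0.343). These sums leave out GLRA4, a further alpha gene looked at after the values were seen. With GLRA4, the median alpha sum was 1.09 of GLRB and the median GLRA2 share 71.9%. The share then differed from controls by -1.74 (HD*) and -6.84 (LD*) percentage points (exact permutation p = 0.612 and 0.116).

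Over the 24 animals, GLRB, GPHN and GLRA2 varied together. GLRB and GPHN had r = 0.93 and rho = 0.75 (100000 permutations, p = 1e-05, the smallest they can give, and p = 8e-05), with r = 0.86 without the 2 animals farthest from the median and 0.80, 0.99 and 0.76 within cohorts 5, 7a and 7b. GLRB and GLRA2 had r = 0.79 and rho = 0.71 (p = 1e-05 and 0.00014), with 0.78 without those 2 and 0.75, 0.73 and 0.90 within cohorts. GLRA2 and GPHN had r = 0.75 and rho = 0.67 (p = 3e-05 and 0.00042), with 0.66 without those 2 and 0.62, 0.76 and 0.77 within cohorts. These were 3 of 15 pairs, with p-values not adjusted. Many other genes followed GLRB as closely: GPHN ranked 335th and GLRA2 2362nd of 9196 genes by r with GLRB.

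SLC6A9 had no correlation with GLRB, GPHN or GLRA2 past its permutation test. Its r was 0.049 with GLRB (permutation p = 0.815), 0.12 with GPHN (p = 0.575) and -0.033 with GLRA2 (p = 0.879), and with GLRB and GPHN it turned negative after rescaling, at -0.34 and -0.24. Its r with GLRA1 was 0.54 (permutation p = 0.00807) and fell to 0.18 without the 2 animals farthest from the median of GLRA1. Values within cohorts were no lower than the pooled value, but came from few animals, and none passed its permutation test. Within cohorts 5, 7a and 7b its r with GLRA1 was 0.70, 0.55 and 0.80 (exact permutation p = 0.0933, 0.123 and 0.119).

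By the fixed rule for likeness, the genes nearest to GLRB by Pearson's r over the 24 animals were WDR47 (r = 0.983), PJA2 (0.979) and UBR3 (0.979), and the most opposite was C1orf122 (-0.953). For GPHN they were FAM115A (0.979), NSF (0.974), TSFM (0.972) and, opposite, RPL36 (-0.951). For GLRA2 they were PCDH17 (0.923), SYT4 (0.911), CRIM1 (0.911) and, opposite, CMC4 (-0.890). For SLC6A9 they were TF (0.940), which encodes transferrin, CDR2L (0.939), C11orf24 (0.937) and, opposite, PALM (-0.880).

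Relations with cell markers were computed after the values were seen. GLRB had r = 0.89 and rho = 0.78 with the neuron marker sum (100000 permutations, p = 1e-05, the smallest they can give, and p = 4e-05), with 0.80 without 2 animals and 0.90, 0.93 and 0.74 within cohorts 5, 7a and 7b. GPHN had r = 0.78 and GLRA2 r = 0.74 with the same sum. SLC6A9 had r = 0.35 with neuron markers and 0.76 with the oligodendrocyte marker sum (rho = 0.74, permutation p = 2e-05 and 7e-05), with 0.68 without 2 animals and 0.89, 0.63 and 0.84 within cohorts. With the spiny neuron marker sum, r was 0.51 for GLRB, 0.60 for GPHN and 0.60 for GLRA2. In the same order of genes, r was -0.47, -0.57 and -0.52 with the astrocyte sum and -0.52, -0.59 and -0.51 with the microglia sum. All of these were among 24 relations computed, with p-values not adjusted, and they are relations between libraries that also differ in cell content.

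**Figure D5:**
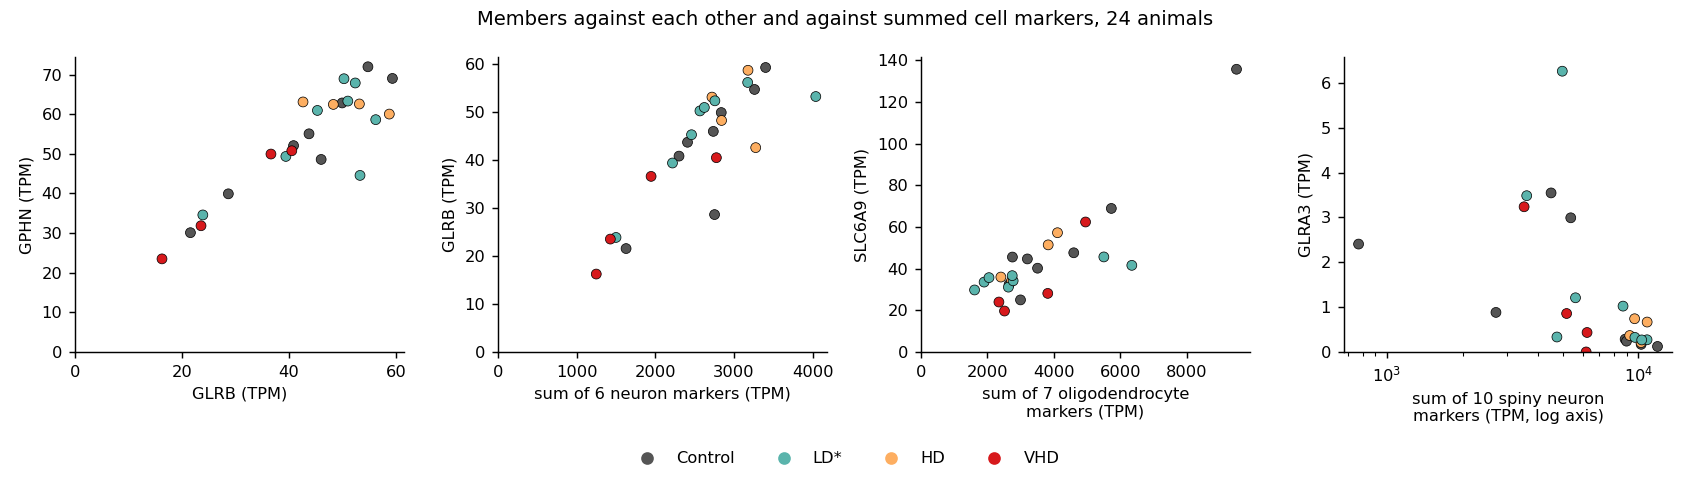
Each point is 1 of 24 animals, coloured by group. From left to right, the panels plot GPHN against GLRB (TPM), GLRB against the sum of 6 neuron markers, SLC6A9 against the sum of 7 oligodendrocyte markers, and GLRA3 against the sum of 10 spiny neuron markers on a log axis. Control 6 stands at the upper right of the third panel with 136 TPM of SLC6A9 and 9493 TPM of oligodendrocyte markers.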

How the data were processed

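RNA-Seq libraries of the NAcc from 24 animals were measured once each. Per the paper's methods and the submitters' processing notes, the authors sequenced polyA-selected libraries, aligned reads uniquely to the MacaM assembly with STAR 2.5.2b, counted them per gene with HTSeq 0.6.1p1 and tested counts with DESeq2. Library strand is described both as kept and as not kept, so reads of overlapping and antisense genes may not be told apart. The deposited values are TPM made by the authors, with column sums of 999998 to 1000000, so depth is unknown and no counting error or read floor is given. How gene lengths entered is not given in the sources used here.

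Groups, cohorts and intake came from the labels. Values were taken as log2(TPM + 1), and genes averaging 1 TPM or more (13637) were tested with limma 3.58.1 (R 4.3.3, trend, Benjamini-Hochberg over all genes, threshold 0.05), in 1 model of 3 groups and 1 model of the 8 HD* animals. On simulated data with 13637 genes the HD* comparison recovered 92 of 100 genes changed by 1 log2 unit and 34 of 100 changed by 0.5, and VHD against HD 42 and 1. The changed genes were drawn at random and varied independently, so these rates are not those of the members. The standard errors of the members in HD* against controls ran from 0.20 (GPHN) to 0.38 (GLRA3). Permutation tests and correlations used Python 3.11.15, numpy 2.4.6 and scipy 1.17.1. Relations to intake, planned with an adjustment over the members, were instead adjusted over all genes with a limma slope. Alternatives were pseudocounts of 0.1 and 8, filters at none and 10 TPM, trimmed-mean rescaling, array weights, cohort terms, subsets of groups and leaving out each animal.

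All 6 members were named in every comparison, with the 3 most and the 1 least correlated genes (among 9197 genes averaging 10 TPM or more) for each member above that level, and the listed genes past the threshold or in the vesicular, gephyrin and transport lists. Members, lists and tests were chosen with earlier results of these data known. INSYN1, INSYN2A, MTARC1, MTARC2 and PECAM1 were not matched by symbol. Values of 2 listed genes are not reported here. Genome coordinates and sequences are not used here.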

Additional observations from a re-analysis of the deposited data

Results flagged for a closer look

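Outlying animals were sought in 45 sets of 4 to 10 animals by the gap of the extreme value to its neighbour, which chance passes in about 5% of sets, and 5 passed. Control 6 had 3.82 TPM of GLRA1, where the other controls had 0.413 to 1.39, and 136 TPM of SLC6A9, where the others had 25.0 to 68.9. The same library had the lowest spiny neuron marker sum (772 TPM) and the highest oligodendrocyte marker sum (9493 TPM) of the 24, and the part of these in its values was not tested. VHD animal 2 had 3.24 TPM of GLRA3 against at most 0.857 in the other HD* animals, and a GLRA2 share of the alpha sum of 84.9% against 95.4% to 98.4%. LD* animal 2 had a GLRA2 share of 82.3% against 90.6% to 97.4% in the other LD* animals.

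The difference of very heavy from heavy drinkers was tested directly and passed for GLRB (log2 -0.85), GLRA2 (-1.0) and GPHN (-0.72), so that the 2 classes pooled as HD* lay apart relative to the same controls. In this contrast 14.6% of all genes passed.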

How the results depend on the processing

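No paired analysis was possible because the labels give no replicate numbers that animals of different groups share. With 24 animals, TPM without depth and a self-test that recovered 34 of 100 changes of 0.5 log2 units, differences of that size could be missed. In VHD against HD, GLRA2 passed under each alternative fit across all genes. The counts moved from 1997 genes and 3 members to 7613 genes and 5 members with array weights (GLRA1 at -0.77 and SLC6A9 at -0.69 then passed) and to 1 member with no filter on low values, where GLRB and GPHN had adjusted p-values of 0.0982 and 0.0990. Without single animals they ranged from 476 to 4651 genes and from 1 to 4 members, with the fewest genes without VHD animal 3 and the most without VHD animal 2, and GLRA3 ranged from -0.0938 to 0.60. Relative to neuron markers, GPHN was at 0.024 and SLC6A9 at 0.23. In the 3 group comparisons 0 genes and 0 members passed under every alternative, while small differences changed sign, and the cause was not tested. For HD* against controls these were GLRA2 (0.013) and GPHN (0.015) after rescaling, GLRA1 with array weights (0.0834), GLRA3 in cohorts 5 and 7a alone (0.018), and GLRB (0.28), GLRA2 (0.39) and GPHN (0.25) with HD alone. For LD* against controls they were GLRA1 with a pseudocount of 8 (-0.00668) and with a cohort term (-0.15), GLRA2 with array weights (-0.0631) and without control 6 (-0.117), and GLRA3 with a cohort term (-0.0975). For HD* against LD*, GLRA1 and GLRA3 were at 0.0259 and 0.00221 with a cohort term.

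Leaving out single animals gave ranges across 0 for HD* against controls of -0.27 to 0.0227 (GLRB), -0.30 to 0.0169 (GLRA2) and -0.22 to 0.0344 (GPHN). For LD* against controls they were -0.000519 to 0.26 (GLRB), -0.0991 to 0.185 (GLRA1), -0.19 to 0.19 (GLRA2), -0.16 to 0.27 (GLRA3) and -0.0333 to 0.17 (GPHN), and for HD* against LD* -0.0846 to 0.15 (SLC6A9). The interaction of HD* with cohort gave 0 to 14 called genes, 14 without control 7 and 1 without control 2, and member ranges of -0.46 to 0.71 (GLRB), -0.17 to 0.23 (GLRA1), -0.50 to 1.76 (GLRA2), -0.64 to 0.38 (GLRA3) and -0.42 to 0.61 (GPHN). GLRA1 there was at -0.15 with a pseudocount of 0.1 and GLRA3 at 0.00387 with 8. The intake slope ranged from -1.21 to 0.71 for GLRA3 in LD*, and in HD* from -0.27 to 0.0565 for GLRA1 and from -0.18 to 0.88 for GLRA3, with GLRA1 at 0.0137 after rescaling and GLRA3 at -0.0449 with a pseudocount of 0.1.

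For subunit balance, HD* minus control in the GLRA2 share was -0.361 percentage points within cohorts 5 and 7a. Adding GLRA4, chosen after seeing the data, gave 0.0697 and 0.0223 for the alpha sum to GLRB in HD* and LD* against controls, and -1.74 and -6.84 percentage points for the GLRA2 share. Without single animals the ratio to GLRB ranged from -0.0807 to 0.0619 for the alpha sum and from -0.00125 to 0.0832 for GPHN in HD* against controls, and from -0.0907 to 0.0224 for GPHN in LD*, and the LD* difference in GLRA2 share from -1.32 to 2.69. After rescaling, r became -0.0863 for GLRB with GLRA3 (0.0956 before, and not read further since GLRA3 lay in separate clusters), -0.34 for GLRB with SLC6A9 and -0.24 for GPHN with SLC6A9.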

Other observations

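GLRA4, which encodes a further alpha subunit and was not among the genes chosen, was looked at after the values were seen because its level exceeded those of GLRA1 and GLRA3. Its mean was 12.9 TPM over the 24 animals, with a range of 4.15 to 23.4. It ranged from 4.15 to 22.1 TPM in controls, from 7.42 to 23.4 in LD*, from 11.2 to 21.5 in HD and from 4.67 to 10.2 in VHD. All its VHD values lay below all its HD values, as did those of 17.9% of all genes tested. With GLRA4 included, GLRA2 made up 70.5% of the summed alpha genes on average (53.6% to 84.9%).

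GLRA3 values lay in a low group and a few higher animals. The 6 highest were LD* animal 2 at 6.26 TPM, control 5 at 3.55, LD* animal 4 at 3.49, VHD animal 2 at 3.24, control 2 at 2.99 and control 6 at 2.41, and the others had 0 to 1.21. The spiny neuron marker sums of those 6 were 4983, 4497, 3598, 3513, 5385 and 772 TPM in that order, in a range of 772 to 11916 over the 24. Their cortical excitatory marker sums were 237, 2.68, 834, 4.52, 395 and 8.49 TPM. They came from controls, LD* and VHD and from cohorts 4, 5 and 7b. Spiny neuron sums below 5385 TPM also occurred with less GLRA3. Control 8 had a sum of 2715 TPM with 0.882 TPM of GLRA3, LD* animal 5 had 4744 with 0.333, and VHD animal 3 had 5185 with 0.857.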
